A study of Mus musculus with 5 samples.

Results

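The EphA receptor family was examined as a set of NEUROD2-bound loci. Its 9 members with a mouse gene in the annotation used (Epha1 to Epha8 and Epha10) were chosen by name. For each member, every ChIP-Seq peak was taken whose midpoint lay in the mm10 span of the gene's longest transcript or up to 50 kb from either end, and overlapping peaks were merged into regions. This gave 100 regions, of 53833 such regions on chromosomes 1 to 19, X and Y. Of the 100, 68 held peaks of at least 2 antibodies and are called shared regions here. Across the genome there were 32261 shared regions.

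Chromatin came from the cerebral cortex of BALB/c embryos at E14.5 (no transgene or treatment is named), pooled over several litters, so that each library averages many animals and all cell types of the dissected tissue. NEUROD2 was precipitated with 3 Abcam antibodies: ab1 (ab168932, raised in mouse), ab2 (ab104430, rabbit) and ab3 (ab109406, rabbit). Each antibody gave 1 library, and libraries from 2 GFP antibodies served as controls during peak calling, the one from the rabbit GFP antibody for both ab2 and ab3. There is a single condition, so nothing here is a contrast between groups, and no test was run. The spread over antibodies mixes antibody and library. Peak lists hold no expression, so the tissue was not checked against marker genes.

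NEUROD2 is a basic helix-loop-helix transcription factor of postmitotic excitatory cortical neurons that binds E-box DNA. EphA receptors are receptor tyrosine kinases in the cell membrane whose main ligands are the ephrin-A proteins, which are tethered to the surface of neighbouring cells. Contact between them can repel a growth cone or a migrating cell, and graded EphA and ephrin-A expression is known to guide topographic projections, including those between thalamus and cortex.

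The E-box form searched here was CANNTG with GC, GA, TC or TA as its middle bases, followed by G or T, on either strand. It is called the extended E-box, and a TC core is counted with GA, its reverse complement. The stretches of 25 bases below show which of these forms lay under EphA binding. They come from every region of all 3 antibodies with such a site in its central 200 bp and, for each other member, from the highest of its 3 top-scoring shared regions that had one. The reference is GRCm38 (mm10), each sequence runs 5′ to 3′ on the strand given, and capitals mark the extended E-box nearest to the region's midpoint.
Epha3 intron 2, chr16:63817868-63817892, plus strand: aagaactgaCAGCTGTaattactcc
Epha3 intron 3, chr16:63657884-63657908, plus strand: catccctggCAGATGGgcataagct
Epha3 intron 3, chr16:63717501-63717525, plus strand: ctgcctggcCATATGTtttcaatgt
Epha3 intron 5, chr16:63633835-63633859, plus strand: ctgactgaaCAGATGGagagacctg
Epha4 intron 3, chr1:77506610-77506634, minus strand: actgtggggCAGATGGtgaatggct
Epha5 intron 4, chr5:84153217-84153241, plus strand: aaaggaagcCAGCTGGcaagcagcc
Epha5 intron 1, chr5:84397276-84397300, plus strand: gagcagcacCATATGGtctcagtga
Epha5 upstream, chr5:84440465-84440489, minus strand: acaaggtggCATCTGTcacccgcat
Epha6 downstream, chr16:59604558-59604582, plus strand: aaaagcaaaCAGATGGgttggggca
Epha2 upstream, chr4:141274908-141274932, minus strand: ctgtgctggCAGATGTgggaacagc
Epha8 downstream, chr4:136917169-136917193, plus strand: acaaatggaCAGCTGGgcttactca
Epha10 upstream, chr4:124881643-124881667, plus strand: ttccccctcCAGCTGGgcgttccgc
The first 9 lines are regions called by all 3 antibodies, and the last 3 were called by ab1 and ab2. Cores with GC, GA and TA in the middle all occur, also within Epha3 alone. No site of this kind lay in the central 200 bp of the 3 highest regions of Epha7 or of either shared region of Epha1. All of these regions held 2 to 5 such sites farther out, and in the intron 5 pair of Epha7 the nearest lay 102 and 104 bp from the midpoint, just past the 100 bp searched on either side.

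In the EphA windows ab1 had 100 peaks, ab2 had 73 and ab3 had 15, out of whole lists of 51841, 35310 and 7470. Peak scores are the −log10 p-value from peak calling multiplied by 10. They are at least 50 in every list and were not scaled between libraries. Reads were not used here, so precision is given as counting error only. Per member, ab1 had more peaks than ab2 or as many in all 9, and ab3 had the fewest in all 9. Epha3 led with all of them, at 28, 21 and 7 peaks in the order ab1, ab2, ab3. Epha4 had 16, 12 and 1, and Epha5 had 11, 11 and 4. Epha3 and Epha5 together held 11 of the 15 regions that ab3 called, whereas Epha1, Epha2 and Epha10 held none.

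**Figure D1:**
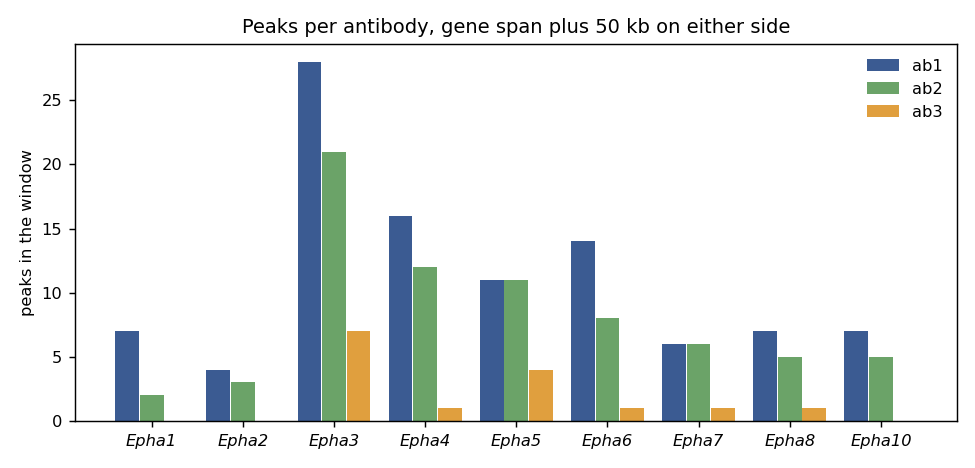
Bars give the number of peaks of each antibody (ab1, ab2, ab3; 1 library each) in the window of each EphA gene. Epha3 has the most peaks with all 3 antibodies (28, 21 and 7), and Epha1, Epha2 and Epha10 have none with ab3.

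All 9 members had at least 1 shared region in their window, where 67.6% of the 21938 protein-coding genes did. Regions of all 3 antibodies lay at 6 of 9 members, against 26.7% of protein-coding genes. Windows of long genes catch more regions by length alone, and the EphA windows add up to 2.94 Mb. Of the 68 shared regions, 15 were called by all 3 antibodies (22.1%, 95% Wilson interval 13.9 to 33.3), near the 22.2% of all shared regions in the genome. The other 53 were called by ab1 and ab2.

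To compare loci of different length, shared regions were counted per 100 kb of window. The median of the 9 members was 2.34 per 100 kb, beside a median of 0.9499 and an upper quartile of 2.35 over all protein-coding genes. Epha3 came first with 4.76 (exact 95% Poisson interval 2.91 to 7.34, counting error only), a density above that of 94.4% of protein-coding genes. Epha4 followed with 4.44 (2.22 to 7.94) and Epha8 with 3.93 (1.27 to 9.16). Epha10 reached 3.79, Epha2 2.34, Epha5 2.16, Epha7 1.97 and Epha1 1.74. Epha6 came last with 0.665 (0.268 to 1.37), and 36.7% of protein-coding genes had a lower density. Neighbours in this order had overlapping intervals throughout, so the order between them is not resolved. The interval of Epha6 lay below those of Epha3 and Epha4 without overlap. With peaks of a score of at least 100 alone, Epha4 (2.42, 0.888 to 5.27) and Epha6 (0.380, 0.104 to 0.974) overlapped, and Epha3 (4.52, 2.72 to 7.05) still lay above Epha6. Epha10 then fell from the fourth to the eighth place, at 0.758. Without ab1 or without ab2, Epha4 and Epha6 overlapped as well, and Epha1, Epha2 and Epha10 were at 0.

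**Figure D2:**
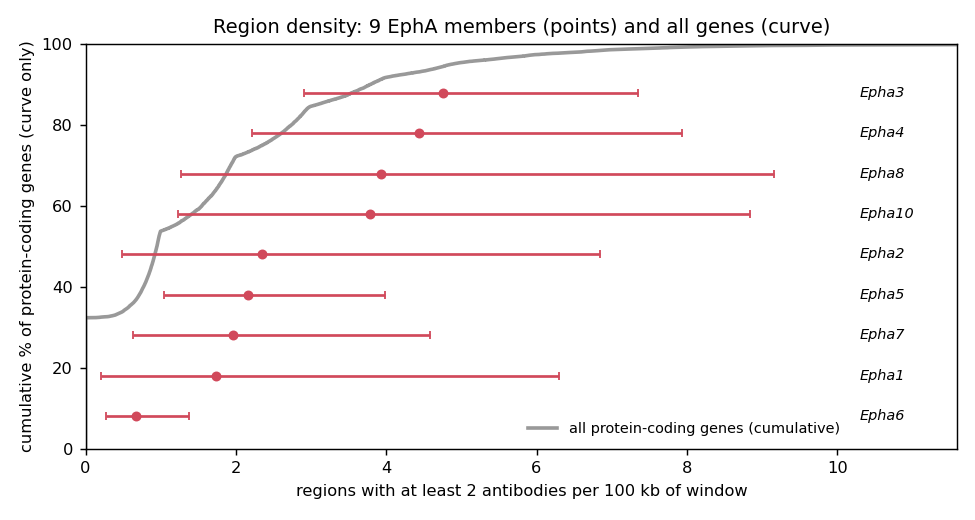
Points give shared regions per 100 kb of window for the 9 EphA genes, ordered from lowest to highest, with exact 95% Poisson intervals (their height has no scale). The grey curve gives the cumulative percentage of all 21938 protein-coding genes. Epha3 and Epha4 lie at 4.76 and 4.44, and Epha6 at 0.665.

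By count, Epha3 (20), Epha4 (11) and Epha5 (10) had at least 10 shared regions, which 3.03% of protein-coding genes had. These counts are not adjusted for window length (420.6, 247.9 and 462.2 kb). By density, Epha5 lay above 73.3% of protein-coding genes. Near the window edge, 4 shared regions lay between 40 and 50 kb from a member and 4 between 50 and 60 kb. These counts are too small to show or exclude a break at 50 kb. Of the 68 shared regions, 42 had their midpoint in an intron of the member, 1 in a 5'UTR exon, 16 upstream of the gene and 9 downstream. With the same windows around every protein-coding gene, where a region counts for each gene whose window holds it, 29.9% lay in introns, 30.9% upstream and 33.0% downstream, against 61.8%, 23.5% and 13.2% at EphA loci. These shares depend on gene length, since a longer gene fills more of its window, and gene length was not accounted for. Of the midpoints inside a gene, 82.6% were intronic over all genes and 42 of 43 in the EphA genes, a difference for which gene length was not accounted and no test was run. None lay in a coding exon or a 3'UTR exon, which for 0 of 68 leaves a share of up to 5.35% (upper end of the Wilson interval). Over all genes these shares were 2.55% and 0.599%, within that limit. Of the 68 midpoints, 59 lay more than 10 kb from the member's TSS (86.8%, against 81.8% over all genes). Within 1 kb of any protein-coding TSS lay 10.29% of them, near the 12.7% of all shared regions. Inside the genes, 27 of 43 midpoints were nearer to the start than to the end (62.8%, against 57.7% over all genes).

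**Figure D3:**
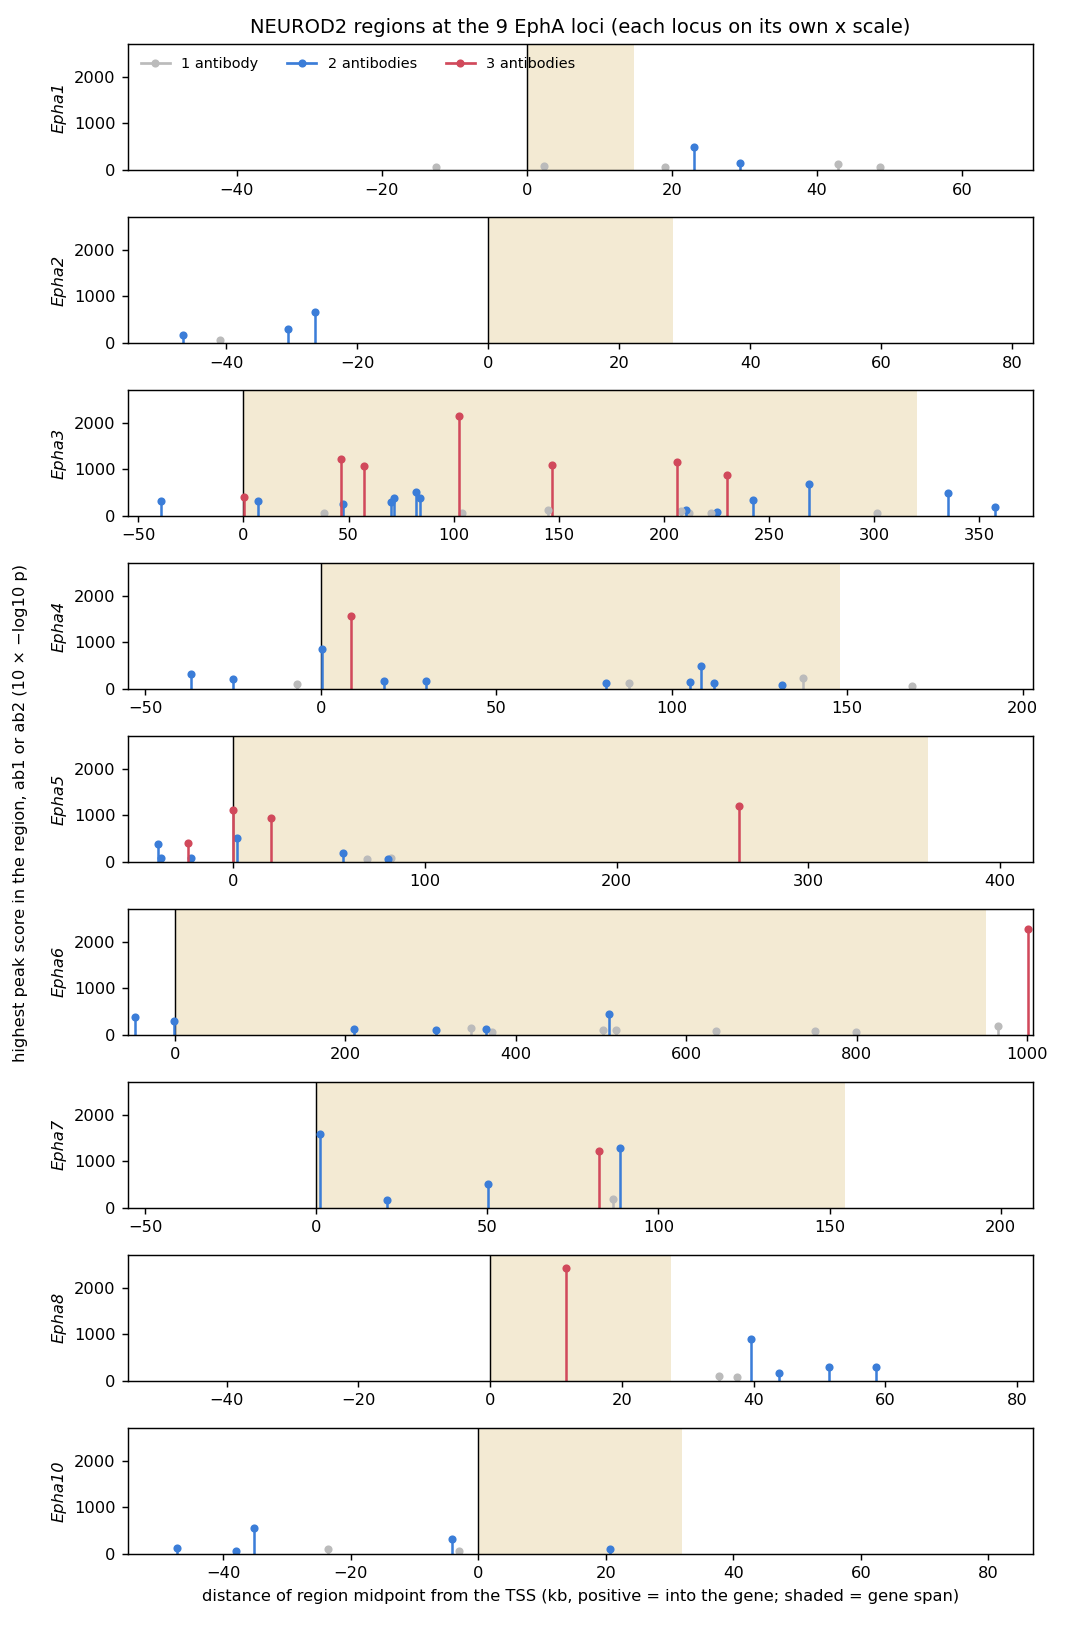
Each panel is 1 EphA gene, with the distance of region midpoints from the TSS in kb on the x axis (shading marks the gene span) and the higher of the ab1 and ab2 scores of each region on the y axis. Grey, blue and red mark regions of 1, 2 and 3 antibodies. Epha3 carries 7 red regions over its introns, whereas most of Epha6 is empty or grey.

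Epha3 encodes a receptor with high affinity for ephrin-A5. Its gene spans 320.6 kb on chromosome 16 (63543534 to 63864158, minus strand) and 17 of its 20 shared regions lay in introns. Intron 2 (70.5 kb) held 7 of them, intron 3 (119.3 kb) 4, intron 5 (39.2 kb) 3 and intron 1 (19.8 kb) 2. Binding was spread over several introns. The highest region (chr16:63760991-63761812), 102.8 kb from the TSS in intron 3, scored 2151 with ab1, 769 with ab2 and 70.8 with ab3. The next, 46.35 kb from the TSS in intron 2, scored 1229, 434 and 134 with the 3 antibodies. The third, 206.2 kb from the TSS in intron 3, scored 1164, 513 and 72.2. Both carry sites printed above, whereas the highest region held no extended E-box over its whole length, and its central 200 bp had CAAGTG as the only CANNTG form. The order of the regions differed between antibodies, since the highest one by ab1 and ab2 scored below 4 of the 7 regions that ab3 called at this locus. The region over the TSS (chr16:63863132-63864687) was lower, at 406, 189 and 64.9.

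Epha4 is a receptor that binds ephrins of both classes and is known for its role in corticospinal tract formation. The gene lies on chromosome 1 (77367185 to 77515088, minus strand), and 9 of its 11 shared regions fell in introns. A region in intron 3 (chr1:77505882-77507212), 8.54 kb from the TSS, was the highest with scores of 1554, 1033 and 107, and was the only one at this locus that ab3 called. A domain of 4150 bp over the TSS (chr1:77512685-77516834) scored 865 with ab1 and 420.1 with ab2 and was the widest of the 68 shared regions. Intron 5 (25.2 kb) held 3 regions, with the highest of them, 108.2 kb from the TSS, at 482 and 188. In 3 of the 11 regions the ab2 score was above the ab1 score, as in 156 against 77.9 at 105.2 kb.

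Epha5, a receptor graded across the forebrain, spans 362.2 kb on chromosome 5 (84054761 to 84416921, minus strand). Its 10 shared regions gathered near the start, with 4 upstream and 4 in introns 1 and 2. The region over the TSS (chr5:84415862-84417971) scored 1108 with ab1, 346 with ab2 and 65.0 with ab3, and its midpoint was the only one of the 68 in a 5'UTR exon. Another region of all 3 antibodies lay 19.6 kb from the TSS in intron 1, at 929.9, 623 and 125. The highest summed score at this locus stood apart, 263.65 kb from the TSS in intron 4, with 1195, 573 and 68.4. Between it and the next shared region lay 183.0 kb without any. An upstream region at 23.6 kb, also called by all 3 antibodies, was lower at 401, 226 and 57.9.

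Epha6 has the longest gene of the family (951.8 kb on chromosome 16, 59653483 to 60605248, minus strand) and the lowest density per window. Of its 7 shared regions 4 lay inside the gene, which is 0.420 per 100 kb of gene, against 5.30 in Epha3 and 6.09 in Epha4 and 0 in Epha1 and Epha2. The longest stretch between neighbouring shared regions was 491.1 kb. A region over the TSS (chr16:60604801-60606845) scored 287 with ab1 and 103.9 with ab2. In intron 5, 509.6 kb from the TSS, a region scored 452 and 317, and 1 at 46.7 kb upstream scored 391 and 228. The former lay 89912 bp from the start of a shorter annotated Epha6 transcript. The highest region in the window (chr16:59603999-59605143), with 2274, 1318 and 120.4, lay 48.9 kb beyond the 3′ end of Epha6 and 3592 bp from the TSS of Crybg3. It had the highest ab2 score of the 68, at a place where another gene starts nearer.

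Epha7, known for marking cortical areas and for splice forms with a truncated kinase, lies on chromosome 4 (28813131 to 28967499, plus strand). It had 5 shared regions, all in its introns. A broad region over the TSS (chr4:28812591-28815940) scored 1576 with ab1 and 388 with ab2. A pair in intron 5 was of like height, with 1218, 675 and 140.3 at 82.7 kb from the TSS and with 1291 and 746 at 88.85 kb. The higher of the pair by ab1 and ab2 was not called by ab3. The remaining regions at 50.2 and 20.55 kb scored 502 and 176 with ab1.

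At the 4 short genes the shared regions mostly lay outside the gene, where most of their window lies. Only 2 of their 15 shared regions had a midpoint inside the member (13.3%, 95% Wilson interval 3.74 to 37.9), against 41 of 53 in the 5 long genes (77.4%, 64.5 to 86.6). With 1 start per gene, that of its longest transcript, the member's own TSS was the closest protein-coding TSS for 4 of 15 and for 51 of 53. The closest genes named here and above rest on those starts. The 50 kb on either side make up a larger portion of a short locus. The 4 short genes span 14.8 to 32 kb of windows of 114.8 to 132 kb. The 5 long genes span 147.9 to 951.8 kb of windows of 247.9 to 1052 kb. The shares inside the gene depend on this geometry, and placement at a given length was not tested. With the TSSs of all gene types counted, the member's was closest for 16 of the 68.

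Epha8 (chromosome 4, 136929419 to 136956816, minus strand) held the highest ab1 and ab3 scores in the family. Its region in intron 3 (chr4:136944417-136946244), 11.5 kb from the TSS, scored 2430 with ab1, 959 with ab2 and 216 with ab3. The other 4 shared regions lay downstream, all closest to the TSS of C1qa, a complement gene of microglia. The highest of them scored 898 with ab1 and 208 with ab2 and lay 18404 bp from that TSS. The next scored 288 and 175, and the one nearest to C1qa, at 298 and 107, lay 483 bp from it.

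Epha10, whose product has a kinase domain thought to lack catalytic activity, lies on the same chromosome (124885799 to 124917800, plus strand). The highest of its 5 shared regions (chr4:124849520-124851537) scored 552 and 257 with ab1 and ab2, 150 bp from the TSS of Yrdc, an enzyme of tRNA modification. A region 47.3 kb upstream of Epha10, at 114 and 66.4, was also closest to Yrdc. So was another at 37.97 kb upstream, at 54.15 and 61.65, and both of these lay within Mtf1. With the starts of all transcripts counted, 1110065P20Rik was closest to the highest region and to each of these. A region upstream of Epha10 (chr4:124880980-124882224) scored 311 and 61.4, and 1 in intron 6 scored 66.8 and 96.02.

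Epha2, best known from epithelia, lies on chromosome 4 (141301240 to 141329384, plus strand) and had 3 shared regions, all upstream. The highest (chr4:141274377-141275339), 26.4 kb from the TSS, scored 668 with ab1 and 218 with ab2. The other two were closest to Arhgef19, with 300.4 and 109 at 30.6 kb and 169 and 115 at 46.6 kb. Epha1, on chromosome 6 (42358487 to 42373268, minus strand), had 2 shared regions, both downstream and closest to Zyx, which encodes a focal adhesion protein. The higher (chr6:42349233-42351293), 224 bp from the Zyx TSS, scored 495 and 138, and the other 146 and 64.2. Within Epha1 and Epha2 themselves no shared region was found.

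A shared region covered the TSS in 5 of 9 members (Epha3, Epha4, Epha5, Epha6 and Epha7), as in 20.4% of protein-coding genes. In 4 of them, all but Epha7, the midpoint lay within 1 kb of the TSS, as in 20.8% of protein-coding genes. The 5 regions were wide (median 2110 bp, from 1556 to 4150 bp) beside the other 63 (median 778 bp). Only those at Epha3 and Epha5 were called by ab3, with scores of 64.9 and 65.0. RefSeq places the start of Epha10 at position 124881785, upstream of the 124885799 used above and within the shared region that scored 311 and 61.4, whose midpoint lies at -183 bp from it. With RefSeq starts, 6 of the 9 members therefore had a shared region over the TSS, against 22.4% of the 16522 protein-coding genes with a RefSeq start. These regions were from 1245 to 4150 bp wide (median 2078 bp). For the other members RefSeq starts lay between -461 bp (Epha5) and 14 bp (Epha7) from those used above, negative being upstream.

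RefSeq promoter windows from 250 bases before to 50 after the start (GRCm38.p6) were found for all 9 members. The extended E-box occurred in those of Epha1, Epha6 and Epha10, and in 26.3% of all 32851 windows in the table. These sites are shown because they differ in whether a shared region covered them.
Epha10 promoter, chr4:124881643-124881667, plus strand: ttccccctcCAGCTGGgcgttccgc
Epha6 promoter, chr16:60605681-60605705, plus strand: cggccgtagCAGCTGTttattgggt
Epha1 promoter, chr6:42373299-42373323, minus strand: cccgcccctCATCTGGccccgccct
The capitals again mark the extended E-box. The sites of Epha10 and Epha6 lay in shared regions, whereas that of Epha1 did not.

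Across the 68 shared regions, ab1 scores ran from 51.5 to 2430 (median 327) and ab2 scores from 61.4 to 1318 (median 145). Over all shared regions in the genome the medians were 278 and 140.2. Regions that ab3 also called were the high ones, with a median ab1 score of 1164 and a median ab2 score of 513, against 288 and 127 for the regions it did not call. The scores of ab3 itself ran from 57.9 to 216 (n = 15). High scores did not always bring a call with ab3, since 11 regions of ab1 and ab2 had a summed score at or above the lowest sum with all 3 antibodies, among them the TSS regions of Epha7 and Epha4. As a description across regions, which are not independent replicates, Pearson's r of the log10 scores was 0.868 for ab1 and ab2 (68 regions, Spearman's coefficient 0.860), 0.581 for ab1 and ab3 (15 regions) and 0.630 for ab2 and ab3 (15 regions). Over all shared regions in the genome, r was 0.885, 0.683 and 0.769 in the same order. The values with ab3 cover only the regions that ab3 called. The ab2 score was above the ab1 score in 9 of 68 (13.2%), against 10.8% of all regions with both antibodies, and in those 9 regions no ab1 score was above 107 and no ab2 score above 161.

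**Figure D4:**
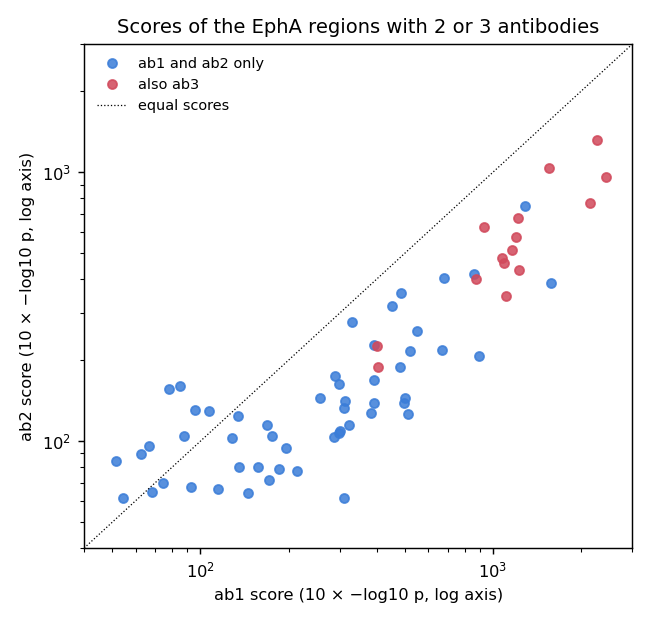
Each point is 1 of the 68 shared EphA regions, with its ab1 score on the x axis and its ab2 score on the y axis (both log axes, 10 × −log10 p). Red points, also called by ab3, lie to the upper right, and the points above the dotted line of equal scores have low scores with both antibodies.

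Of the 68 shared regions, 41 had an extended E-box within their central 200 bp (60.3%, 95% Wilson interval 48.4 to 71.1), near the 59.6% of all shared regions. Windows of the same size 1000 bp outside the regions held it in 17.6% (10.4 to 28.4) on the left and 26.5% (17.4 to 38.0) on the right, beside 22.3% on either side for all shared regions. With each antibody's own peaks in the EphA windows, ab1 and ab2 each gave 63.0% and ab3 gave 60%, a mean of 62.0 ± 1.74% (SD over the 3 antibodies). None of the 5 regions over a member's TSS had the site in its centre, which allows a share of up to 43.5%, and 41 of the other 63 did (65.1%). With RefSeq starts, 1 of 6 regions over a TSS had it, that of Epha10 (16.7%), and 40 of the other 62 (64.5%). The intervals of these last shares overlap (3.00 to 56.4 and 52.1 to 75.3), and no test of the difference was run. Of the 5, those of Epha4, Epha6 and Epha7 held 2 to 4 extended E-boxes outside the central 200 bp. Over all shared regions the share was 20.8% within 1 kb of a protein-coding TSS and 65.3% beyond it. Anywhere in the region, the site occurred in 92.7% of the shared EphA regions and in 90.3% of all shared regions. The share was 60.4% of regions with 2 antibodies and 60% of those with 3, beside 58.6% and 63.4% over all shared regions. For the 15 EphA regions with 3 antibodies the interval (35.8 to 80.2) covers both of these values. A core with GA in the middle was found in 36.8% of the regions, GC in 25% and TA in 13.2%, near the 39.1%, 23.4% and 10.6% of all shared regions. Of the 9 highest regions, 1 per member, 4 had an extended E-box in the centre (those of Epha2, Epha4, Epha5 and Epha6). Regions with the site had median ab1 and ab2 scores of 309 and 139, and those without it 452 and 174.5. The latter include the 5 regions over a member's TSS, whose median ab1 score was 865. No test was run, and neither these medians nor the count of highest regions was set beside all shared regions.

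**Figure D5:**
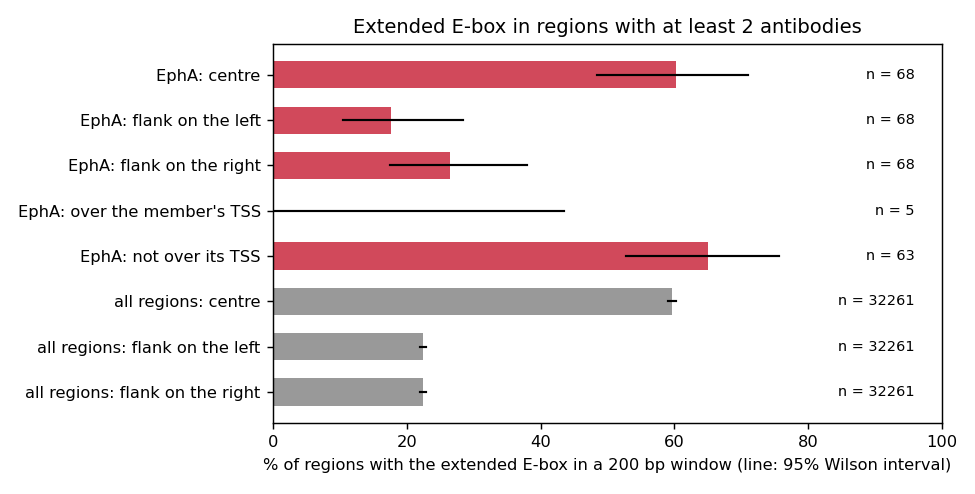
Bars give the percentage of shared regions with the extended E-box in a 200 bp window, with 95% Wilson intervals as lines and the number of regions at the right. EphA regions (red) hold it in 60.3% of centres and in 17.6% and 26.5% of flanks, and all shared regions (grey) in 59.6% and 22.3%.

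Among the other genes of the pathway, the ephrin-A ligands each had shared regions (5 of 5), 25 in all, and none that all 3 antibodies called. Over all protein-coding genes these shares were 67.6% and 26.7%, and no test was run on any of the lists that follow. Efna3 had the highest density of them (6.42 per 100 kb) and Efna5 the lowest (0.796). Efna1, Efna3 and Efna4 are neighbours on chromosome 3, so a region there can count for more than 1 of them. Of the EphB receptors 4 of 5 had shared regions, while Ephb4 had none. By count, Ephb1 led (23 regions, 4.32 per 100 kb), followed by Ephb2 (19, 6.59). By density, Ephb2 led, followed by Ephb6 (5 regions, 4.35 per 100 kb). The 3 ephrin-B ligands all had shared regions, and each had at least 1 of all 3 antibodies. Of the 20 genes that act downstream of EphA receptors, 18 had shared regions, with a median density of 2.43 per 100 kb beside 2.34 for the receptors. Fyn, a Src family kinase, had the highest (23 regions, 7.78 per 100 kb), followed by Cdk5 (7 regions, 6.65), which phosphorylates the exchange factor ephexin. Ngef, the gene of that ephexin, had 1 shared region (0.508), and Adam10, a protease that cleaves ephrin-A, and Arhgef15 had none. Densities ran from 0 to 7.78 in that list and from 0.665 to 4.76 among the EphA receptors. The median densities of the ephrin-A ligands, EphB receptors and ephrin-B ligands were 4.57, 4.32 and 3.48, each above that of the EphA receptors.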

How the data were processed

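ChIP-Seq reads were mapped by the authors to mm10 with Bowtie on Galaxy. Duplicates and reads with several map positions were removed, and MACS called peaks per antibody, each against GFP reads from an antibody of its own host. The deposited score of each peak was read as 10 times the −log10 p-value, the MACS convention, since its lowest value of 50 matches the p-value limit of the authors. Depth as reads was not used here.

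Peak positions were used as deposited and are printed counting from 1. Overlaps of at least 1 bp were merged per locus, and midpoints were placed on GENCODE release M21 (GRCm38), longest-span transcript per gene. The same windows were applied to all 21938 protein-coding genes. Extended E-boxes were searched on both strands of GRCm38. The reference is of strain C57BL/6J and the embryos are BALB/c, so strain differences in motifs were not seen. RefSeq starts were taken from promoter windows of the same build. Wilson and exact Poisson intervals cover counting error only.

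The members and lists were chosen with earlier results of these data known. Regions named were, per member, the 3 with the highest summed score and those within 1 kb of the TSS. Others, the sites of regions with all 3 antibodies and the promoter sites were chosen after the values were seen. Steps were tested on simulated data with known answers. Alternatives were other windows, a score of at least 100, 50% overlap, each antibody left out, other motif windows and other transcripts. Tools were matplotlib 3.10.9, pysam 0.24.0, scipy 1.17.1, pandas 2.3.3, numpy 2.4.6 and Python 3.11.15.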

Additional observations from a re-analysis of the deposited data

How the results depend on the processing

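The number of shared EphA regions rests on ab1 and ab2. Leaving out each antibody in turn gave 15 to 69 shared regions, with 15 without ab1 and 15 without ab2. The densities per 100 kb then ran from 0 to 1.74 for Epha1, 0 to 2.34 for Epha2, 1.66 to 4.99 for Epha3, 0.403 to 4.44 for Epha4, 0.866 to 2.16 for Epha5, 0.0951 to 0.665 for Epha6, 0.393 to 1.97 for Epha7, 0.785 to 3.93 for Epha8 and 0 to 3.79 for Epha10, the low end being without ab1 or ab2 in each, since ab3 has few peaks. Without ab1 or ab2, Epha1, Epha2 and Epha10 were thus at 0, and Epha6 had 1 shared region. Their intervals overlap (upper limits of 3.21, 2.88 and 2.795, and 0.00241 to 0.530 for Epha6), so this order is not resolved. With no window around the genes 43 shared regions were left, and the density became 0 for Epha1 and Epha2 and 3.24 for Epha7. A score of at least 100 left 7 regions of all 3 antibodies and a density of 0.758 for Epha10, 2.42 for Epha4 (below the 3.14 of Epha8), 1.30 for Epha5, 0.871 for Epha1 and 0.380 for Epha6. The share with the extended E-box became 51.0% with a score of at least 100, 82.4% for any CANNTG, 35.3% in the central 100 bp, 80.9% in the central 400 bp and 66.2% around the midpoint of the highest peak. For Epha1 and Epha6 the SD over antibodies (3.14 and 0.619 peaks per 100 kb) is near or above the density itself, so a move within it does not mean that the value held. RefSeq starts, the placement and TSS shares over all genes and the intervals under the alternatives were added after seeing the data. No paired analysis was possible because the GFP libraries entered only as controls and each antibody has 1 library.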

Other observations

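Of the 100 EphA regions, 32 were called by a single antibody, 30 by ab1 and 2 by ab2. The remaining 68% had at least 2 antibodies, against 59.9% of all regions. Those of ab1 scored between 50.3 and 222.6 (median 83.7), below the median of 327 for shared regions, and the highest lay in intron 14 of Epha4, 137.5 kb from the TSS. Epha6 had 8 single-antibody regions beside 7 shared ones, and Epha3 had 7 beside 20. In Epha3, 1 of these regions had its midpoint in coding exon 5 (66.0 with ab1), where no shared region of the family fell in a coding exon. The only peak inside the Epha1 gene was of this kind, 2.43 kb from the TSS in intron 2 with a score of 91.9. The 2 regions of ab2 alone lay in intron 2 of Epha5 (81.1) and intron 11 of Epha6 (84.8).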
